A study of Mus musculus with 16 samples.

Results

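The interferon-inducible GTPases of mice are encoded by the Gbp genes (guanylate-binding proteins) and the Irg genes (immunity-related GTPases). They are described here by 10 genes, Gbp2, Gbp3, Gbp5, Gbp6, Gbp7, Igtp, Irgm1, Irgm2, Iigp1 and Tgtp1, taken by name wherever an array probe set was paired with one of these symbols. The 10 genes were read by 10 of the 35519 probe sets of the array, which gave 19935 genes a probe set of their own. Gbp3, Gbp5, Gbp7, Irgm1 and Iigp1 each had a probe set of their own. The other 5 genes were read only by probe sets paired with several genes: Gbp2 with Gbp2b, Igtp with Irgm2, Tgtp1 with Tgtp2 on 2 probe sets (10385518 and 10385533), and Gbp6 on a probe set that also lists Gbp4, Gbp8, Gbp9, Gbp10 and Gbp11. The signal of a shared probe set cannot be divided among its genes.

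Liver RNA was taken from 16 males, of mixed Sv129/C57Bl/6 background, and each mouse had its own array. The groups were PPARβ/δ knockout mice fasted for 24 h (3 mice), PPARβ/δ knockout mice kept fed (4), wild-type mice fasted for 24 h (5) and wild-type mice kept fed (4). PPARβ/δ is the nuclear receptor encoded by Ppard, which lies on chromosome 17. None of the 10 GTPase genes lies on that chromosome, and the strain origin of their loci in each mouse was not analysed here. The sources used here give neither the ages of the mice nor the deleted part of Ppard.

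Interferon gamma, released mainly by T cells and natural killer cells, binds the receptor pair Ifngr1 and Ifngr2 and acts through the kinases Jak1 and Jak2 on genes whose promoters hold the GAS element. Type I interferons act through Ifnar1 and Ifnar2 on Stat2 and Irf9, which act at the ISRE element; interferon regulatory factors such as Irf1 bind it as well. The GTPases made in response gather on the vacuoles of intracellular bacteria and parasites and help to disrupt them. Irgm1, Irgm2 and Igtp are regulatory members that sit on the cell's own membranes and keep the effector Irg proteins inactive there; Iigp1 and Tgtp1 are effectors that load onto the pathogen vacuole. Gbp2 and Gbp5 are membrane-anchored guanylate-binding proteins, and Gbp5 is known for its part in inflammasome activation in macrophages.

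Promoters of 6 of the genes are shown as examples. Each carries an ISRE core close to its start, and 4 of them (Igtp, Irgm2, Tgtp1 and Gbp7) a GAS element as well. Gbp2 and Gbp5 also carry an ISRE core, and their promoters are not shown. Each sequence runs from 250 bases before the start site to 50 bases after it, 5′ to 3′ on the gene's own strand, from RefSeq (GRCm38.p6). The windows are chr11:48871371-48871670 (minus strand) for Irgm1, chr11:58199306-58199605 (plus) for Igtp, chr11:58214727-58215026 (plus) for Irgm2, chr11:48992197-48992496 (minus) for Tgtp1, chr3:142559794-142560093 (plus) for Gbp3 and chr3:142530086-142530385 (plus) for Gbp7. Capitals mark matches to the GAS element (TTCNNNGAA) and the ISRE core (GAAA and GAAA separated by any 2 bases), both searched on both strands.
Irgm1: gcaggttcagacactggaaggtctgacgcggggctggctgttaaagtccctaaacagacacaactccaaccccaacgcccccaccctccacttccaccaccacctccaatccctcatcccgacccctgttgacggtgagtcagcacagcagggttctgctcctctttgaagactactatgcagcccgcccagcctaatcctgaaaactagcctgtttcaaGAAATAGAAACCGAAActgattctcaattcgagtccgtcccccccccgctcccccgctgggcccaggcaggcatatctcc
Igtp: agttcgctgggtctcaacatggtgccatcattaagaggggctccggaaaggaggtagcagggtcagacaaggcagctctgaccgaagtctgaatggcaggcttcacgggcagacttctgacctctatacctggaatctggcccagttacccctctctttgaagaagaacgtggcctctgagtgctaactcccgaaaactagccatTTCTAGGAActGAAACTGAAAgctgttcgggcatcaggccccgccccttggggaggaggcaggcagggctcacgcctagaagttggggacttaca
Irgm2: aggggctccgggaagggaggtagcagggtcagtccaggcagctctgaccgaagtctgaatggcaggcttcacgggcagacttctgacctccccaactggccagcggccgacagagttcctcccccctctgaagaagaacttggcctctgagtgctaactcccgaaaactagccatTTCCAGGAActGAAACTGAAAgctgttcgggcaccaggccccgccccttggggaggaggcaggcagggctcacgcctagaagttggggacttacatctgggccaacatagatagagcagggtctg
Tgtp1: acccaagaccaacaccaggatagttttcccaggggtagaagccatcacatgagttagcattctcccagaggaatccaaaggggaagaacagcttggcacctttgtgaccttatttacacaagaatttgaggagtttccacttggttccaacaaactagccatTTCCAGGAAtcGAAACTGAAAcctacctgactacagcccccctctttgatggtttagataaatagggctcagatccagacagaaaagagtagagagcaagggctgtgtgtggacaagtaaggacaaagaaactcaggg
Gbp3: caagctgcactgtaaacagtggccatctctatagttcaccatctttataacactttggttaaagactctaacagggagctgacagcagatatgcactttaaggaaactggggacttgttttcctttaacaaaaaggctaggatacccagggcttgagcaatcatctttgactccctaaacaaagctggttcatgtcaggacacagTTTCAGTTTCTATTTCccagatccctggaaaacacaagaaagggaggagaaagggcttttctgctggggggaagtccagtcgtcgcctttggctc
Gbp7: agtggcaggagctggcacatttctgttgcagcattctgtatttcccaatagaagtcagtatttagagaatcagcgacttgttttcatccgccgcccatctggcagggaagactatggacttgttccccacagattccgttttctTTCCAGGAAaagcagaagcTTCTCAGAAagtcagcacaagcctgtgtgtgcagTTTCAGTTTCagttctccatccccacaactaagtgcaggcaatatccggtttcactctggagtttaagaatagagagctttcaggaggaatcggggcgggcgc

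All 8 members with a promoter in the RefSeq table (Gbp2, Gbp3, Gbp5, Gbp7, Igtp, Irgm1, Irgm2 and Tgtp1) held an ISRE core, as did 3.44% of the 32851 promoter windows of the same length. A GAS element was found in 5 of the 8 (Gbp5, Gbp7, Igtp, Irgm2 and Tgtp1), and in 8.3% of all windows. In Igtp, Irgm2 and Tgtp1 the GAS element began 11 bases before the ISRE core, and the matches did not overlap. In Irgm1 and Gbp3, ISRE cores overlapped each other, beginning 30 and 24 bases before the start of Irgm1 and 45 and 39 bases before that of Gbp3. The windows of Igtp and Irgm2 were identical at 184 of 270 aligned bases. Gbp3 had another window starting further downstream, with no match to either. The PPAR element (AGGTCA repeated after any 1 base, on either strand) was in none of the 8 windows and in 0.0396% of all windows. A match is a description of letters in these windows and not of binding. By gene order, Gbp5, Gbp7, Gbp3 and Gbp2 lie in 1 cluster on chromosome 3 (with Gbp2b between Gbp3 and Gbp2), Igtp and Irgm2 are neighbours on chromosome 11, Irgm1 and Tgtp1 lie elsewhere on chromosome 11, Gbp6 is on chromosome 5 and Iigp1 on chromosome 18.

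Values are log2 of the deposited probe set intensity. A probe set was called changed at an adjusted p under 0.05 in limma, and p was adjusted over the 19940 rows tested. Errors after ± are standard errors of the limma fit for differences and SD for group means. The median intensity of an array was 8.08 to 8.61, and 12 hepatocyte markers had scores (mean centred log2 intensity) between -0.12 and 0.11 in all 16 livers. Ppard averaged 4.48 ± 0.11 in knockout fasted (n = 3), 4.71 ± 0.28 in knockout fed (n = 4), 4.56 ± 0.10 in wild-type fasted (n = 5) and 5.10 ± 0.36 in wild-type fed mice (n = 4). Knockout minus wild-type was -0.39 ± 0.15 among fed animals (adjusted p = 0.265) and -0.08 ± 0.16 among fasted animals (adjusted p = 0.908). As the deleted part is not given, this checks nothing about the genotype. With the fast, Ppard fell in wild-type mice (-0.54 ± 0.14, adjusted p = 0.025), where 5.93% of all rows were called lower. In knockouts its fasting difference was -0.23 ± 0.16 (adjusted p = 0.578).

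Livers that stood apart from their group bear on the GTPases. Wild-type fasted mouse 3 was the highest of the 5 mice of its group on all 10 GTPase probe sets, against 17.2% of all rows, with a median excess of 1.00 on the log2 scale over the mean of the other 4 mice. The same liver was also highest for 20 of 26 interferon gamma output genes (Cxcl9 was 5.62 there and 3.30 to 4.18 in the other 4), for 14 of 25 type I interferon-stimulated genes and for 11 of 18 Kupffer cell and macrophage markers. It was likewise highest for 12 of 18 acute phase genes, 10 of 20 genes listed for interferon gamma signalling and 6 of 12 hepatocyte markers. For T and NK cell markers it was highest for 3 of 19, and for sinusoidal endothelial markers for 3 of 15. Knockout fed mice 1 and 4 had the highest scores of 18 acute phase genes, 1.29 and 2.09. Scores were -0.28 and 0.57 in the other knockout fed mice, and lay between -0.38 and -0.08 for wild-type fed mice. Counts are therefore also given without wild-type fasted mouse 3, and without knockout fed mice 1 and 4. They cover the GTPases, the interferon gamma output and type I interferon-stimulated genes and the Kupffer cell and macrophage markers. Wild-type fasted mouse 3 was picked from the GTPase values themselves, so counts without it describe the data and add no support. Wild-type fasted mouse 5 alone was high in pancreas markers (score 2.16, against -0.32 to 0.23 in the other 15 livers), and the calls without it are among those given with each single array left out.

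Among the regulatory Irg genes, Irgm1 gave log2 intensities of 5.80, 5.86 and 5.97 in knockout fasted mice. Knockout fed mice gave 6.93, 6.91, 6.75 and 6.64. Wild-type fasted mice gave 5.04, 5.21, 5.77, 5.10 and 5.21, and wild-type fed mice 5.88, 6.07, 6.11 and 5.96. Every knockout fed liver lay above all 12 others, and every wild-type fasted liver lay below all others. The probe set shared by Igtp and Irgm2 read 5.86, 6.32 and 6.13 in knockout fasted mice, and 7.26, 7.27, 6.57 and 6.91 in knockout fed mice. It read 5.28, 5.36, 6.14, 4.90 and 4.88 in wild-type fasted mice, and 6.68, 6.36, 6.27 and 6.20 in wild-type fed mice. Here knockout fed and wild-type fed livers overlapped (6.57 against 6.68), and wild-type fasted mouse 3 reached the range of the knockout fasted mice.

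Of the effector Irg genes, Iigp1 gave 8.57, 8.91 and 8.77 in knockout fasted mice and 9.03, 9.15, 9.09 and 8.95 in knockout fed mice. It gave 8.23, 8.11, 8.57, 8.43 and 8.20 in wild-type fasted mice and 8.85, 8.31, 8.72 and 8.76 in wild-type fed mice. All 4 knockout fed livers were above every other liver, by a small margin. On 1 of the 2 probe sets shared by Tgtp1 and Tgtp2 (10385533), knockout fasted mice read 4.45, 4.89 and 4.48 and knockout fed mice 5.49, 5.55, 5.01 and 4.94. Wild-type fasted mice read 3.56, 3.81, 5.46, 3.70 and 3.92, and wild-type fed mice 4.09, 3.89, 4.31 and 4.18. Apart from wild-type fasted mouse 3, which lay within the knockout fed range, all wild-type livers were below all knockout livers. The other Tgtp1 and Tgtp2 probe set (10385518) correlated with this one at r = 0.99 over the 16 arrays. It did not separate the genotypes in this way. Knockout fasted mouse 3 read 4.15 there, below wild-type fed mice 3 and 4 at 4.25 and 4.20.

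Among the guanylate-binding proteins, Gbp3 gave 4.53, 5.11 and 5.08 in knockout fasted mice and 5.52, 6.39, 5.55 and 5.62 in knockout fed mice. It gave 3.76, 3.98, 4.24, 3.52 and 3.62 in wild-type fasted mice and 4.53, 3.97, 4.29 and 4.53 in wild-type fed mice. Every knockout fed liver exceeded every other liver, and all knockout fasted livers exceeded all wild-type fasted ones. The probe set that lists Gbp6 and 5 other Gbp genes read 5.84, 6.22 and 5.57 in knockout fasted mice and 8.15, 7.94, 7.13 and 7.05 in knockout fed mice. It read 4.83, 4.81, 6.08, 4.80 and 5.10 in wild-type fasted mice and 6.80, 6.07, 6.87 and 6.45 in wild-type fed mice. Wild-type fasted mouse 3 was the only liver of its group to reach the wild-type fed or knockout fasted range. Gbp7 gave 5.25, 5.85 and 5.70 in knockout fasted mice, 6.19, 6.57, 6.29 and 6.29 in knockout fed mice, 4.61, 4.31, 5.64, 4.57 and 4.59 in wild-type fasted mice and 5.79, 5.03, 6.03 and 5.70 in wild-type fed mice. The probe set of Gbp2 and Gbp2b ranged from 2.77 to 4.00 over all livers. Gbp5 was dim, at 1.94 to 2.68, with a mean under the 40th percentile of genes (log2 2.79), so a low level limits what it can show.

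**Figure D1:**
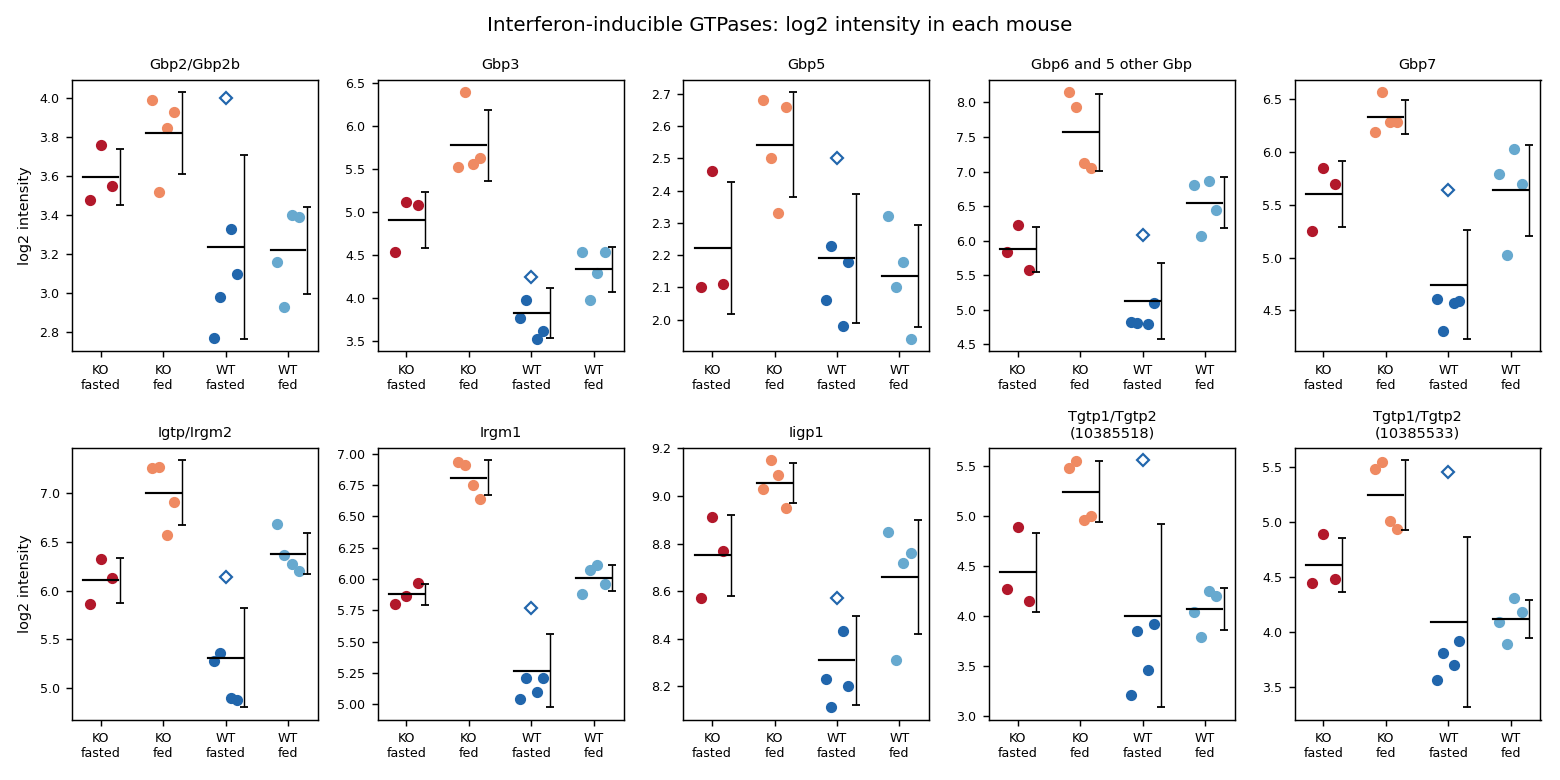
Log2 intensity of each GTPase probe set (vertical axes, each with its own range) in every mouse, by group; points are single mice, the horizontal bar is the group mean, the vertical bar 1 SD on either side of it, and the open diamond is wild-type fasted mouse 3. Knockout fed mice had the highest mean on all 10 probe sets.

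Knockout fed mice had the highest group mean on 10 of 10 GTPase probe sets, as on 25.9% of all rows, and wild-type fasted mice the lowest on 8, as on 22.6% of all rows. Wild-type fed mice were lowest on the remaining pair, Gbp5 and the probe set of Gbp2 and Gbp2b. The order below the knockout fed mice differed between genes. Wild-type fed mice came second for Irgm1, Gbp7, the Igtp and Irgm2 probe set and the Gbp6 probe set. Knockout fasted mice came second for Gbp3, Iigp1, Gbp5, the Gbp2 and Gbp2b probe set and both Tgtp1 and Tgtp2 probe sets. The groups in second place and the one below overlapped on 9 of the 10 probe sets, the exception being 10385533 of Tgtp1 and Tgtp2.

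Knockout mice were compared with wild-type mice in the fed state to ask what loss of PPARβ/δ did to these genes without a fast. All 10 probe sets had higher means in knockout fed mice (median difference 0.75, against 0.01 for all rows), as did 52.3% of all rows. Gbp3 rose by 1.44 ± 0.20 (2.71-fold, 95% interval 1.01 to 1.87 on the log2 scale, adjusted p = 0.00363), and Irgm1 by 0.80 ± 0.13 (1.75-fold, adjusted p = 0.00608). In bulk RNA, more cells of a type and more RNA per cell cannot be told apart. These 2 of 10 passed, where 0.451% of all rows were called higher. The other 8 did not pass, with differences from 0.39 ± 0.12 for Iigp1 to 1.18 ± 0.36 for the Tgtp1 and Tgtp2 probe set 10385518. On 9 of the 10, every knockout fed liver lay above every wild-type fed liver, as on 3.55% of all rows, the exception being Igtp and Irgm2. Wild-type fasted mouse 3 enters this comparison only through the shared estimate of the spread; without it 4 passed (0.496% of all rows), the additions being both Tgtp1 and Tgtp2 probe sets (adjusted p = 0.00866 and 0.00199). Without knockout fed mice 1 and 4, Gbp3 (1.64, adjusted p = 0.0178) and Irgm1 (0.83, adjusted p = 0.0453) again passed, with 0.201% of all rows.

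In fasted mice, the same comparison of genotypes again gave 10 of 10 higher means in knockouts (median 0.56, against -0.02 for all rows), as in 43% of all rows. Gbp3 rose by 1.09 ± 0.21 (2.12-fold, adjusted p = 0.0282) and Irgm1 by 0.61 ± 0.13 (1.53-fold, adjusted p = 0.0477), where 0.346% of all rows were called higher. The remaining 8 ranged from 0.04 ± 0.13 for Gbp5 to 0.85 ± 0.25 for Gbp7 and did not pass. Knockout and wild-type fasted livers did not overlap for these same 2 genes, Gbp3 and Irgm1, nor did they on 3.81% of all rows. The Irgm1 call was lost on leaving out any 1 array other than wild-type fasted mouse 3 (adjusted p = 0.0501 to 0.234). Gbp3 lost its call without knockout fasted mouse 2 or 3 or wild-type fasted mouse 4 or 5 (adjusted p = 0.0667 to 0.174). With wild-type fasted mouse 3 left out, 5 passed (0.381% of all rows): Gbp3 (1.19), Irgm1 (0.74), Gbp7 (1.08), the Igtp and Irgm2 probe set (1.00) and 10385533 of Tgtp1 and Tgtp2 (0.86). Without knockout fed mice 1 and 4, Gbp3 alone passed (0.386% of all rows).

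Averaged over fed and fasted mice, a contrast added after the values were seen, 6 of 10 probe sets were higher in knockout mice, where 0.978% of all rows were called higher. They were Gbp3 (1.26 ± 0.15, adjusted p = 0.000426), Irgm1 (0.71 ± 0.09, adjusted p = 0.000837), Iigp1 (0.42 ± 0.09, adjusted p = 0.0212), Gbp7 (0.77 ± 0.18, adjusted p = 0.0346), Igtp and Irgm2 (0.71 ± 0.16, adjusted p = 0.0375) and the Gbp6 probe set (0.89 ± 0.21, adjusted p = 0.0444). Gbp3 and Irgm1 kept this call with each of the 16 arrays left out in turn. The Gbp6 probe set kept it in 3 of 16 such fits, Gbp7 and Igtp with Irgm2 in 4 of 16 each, and Iigp1 in 14 of 16. Leaving out wild-type fasted mouse 3, 9 of 10 passed (1.01% of all rows), and without knockout fed mice 1 and 4, 2 of 10 (0.617%).

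The effect of a 24 h fast was asked within each genotype. In knockout mice all 10 probe sets had lower means in fasted livers (median -0.77, against -0.02 for all rows), as did 55.3% of all rows. Irgm1 fell (-0.93 ± 0.14, 1.91-fold lower, adjusted p = 0.00109), as did the Gbp6 probe set (-1.69 ± 0.32, 3.23-fold lower, adjusted p = 0.00605) and Gbp3 (-0.86 ± 0.22, 1.81-fold lower, adjusted p = 0.0384). These 3 of 10 compare with 1.81% of all rows called lower. The Igtp and Irgm2 probe set missed the threshold at -0.90 ± 0.25 (adjusted p = 0.0529). On 8 of the 10, no fasted knockout liver reached the lowest fed one, as on 7.07% of all rows, the exceptions being Gbp5 and the Gbp2 and Gbp2b probe set. When wild-type fasted mouse 3 was left out, which again acts through the shared spread, 7 were called lower (1.83% of all rows). Without knockout fed mice 1 and 4, Irgm1 (-0.95, adjusted p = 0.0119) and the Gbp6 probe set (-1.66, adjusted p = 0.0368) passed and Gbp3 did not (-1.06, adjusted p = 0.0722), with 0.612% of all rows called lower. Gbp3 also missed the threshold without knockout fasted mouse 1, 2 or 3, knockout fed mouse 2 or 4, or wild-type fed mouse 3 (adjusted p = 0.0521 to 0.194).

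In wild-type mice, 8 of 10 probe sets had lower means after the fast (median -0.43, against 0.02 for all rows), as did 43.4% of all rows. Irgm1 fell (-0.74 ± 0.12, 1.67-fold lower, adjusted p = 0.000861), as did the Gbp6 probe set (-1.42 ± 0.28, 2.68-fold lower, adjusted p = 0.00334). Igtp and Irgm2 (-1.07 ± 0.22, 2.09-fold lower, adjusted p = 0.00421) and Gbp7 (-0.89 ± 0.23, 1.86-fold lower, adjusted p = 0.0213) fell as well. These 4 of 10 compare with 5.93% of all rows called lower. Fasted and fed livers did not overlap for Irgm1 and for Igtp with Irgm2, 2 of 10, where 7% of all rows were lower without overlap. Gbp3 (-0.51 ± 0.19, adjusted p = 0.121) and Iigp1 (-0.35 ± 0.11, adjusted p = 0.0657) did not pass, and Gbp5 (0.05 ± 0.12) and the Gbp2 and Gbp2b probe set (0.02 ± 0.19) had positive differences that were negative without wild-type fasted mouse 3 (-0.03 and -0.17). Without that mouse 5 passed (5.4% of all rows), and Iigp1 was the addition (-0.42, adjusted p = 0.0319). The Gbp7 call was lost on leaving out wild-type fasted mouse 2 or 4 or wild-type fed mouse 1, 3 or 4 (adjusted p = 0.0524 to 0.0876). Without knockout fed mice 1 and 4, the same 4 probe sets passed (6.24% of all rows).

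Whether the fast acted differently in the genotypes was tested as the difference between the fasting responses. None of the 10 probe sets passed in limma, none had an unadjusted p under 0.05, and 2 of all 19940 rows (0.01%) were called, with 2440 at an unadjusted p under 0.05. The 95% interval of the difference was -0.58 to 0.20 for Irgm1, -0.97 to 0.27 for Gbp3, -1.16 to 0.62 for the Gbp6 probe set, -0.59 to 0.90 for Gbp7 and -1.83 to 0.35 for the Tgtp1 and Tgtp2 probe set 10385518. Without wild-type fasted mouse 3 the differences were -0.07 for Irgm1, -0.25 for Gbp3, -0.03 for the Gbp6 probe set, 0.38 for Gbp7 and -0.35 for 10385518, against -0.19, -0.35, -0.27, 0.16 and -0.74 with it, and none passed in limma. With all mice, a difference of 1 log2 unit lay within the interval for some of these genes and outside it for others. The knockout fed group enters both the fasting comparison in knockouts and the genotype comparison in fed mice, so those values share arrays. Averaged over genotypes, also added after the values were seen, 6 of 10 were lower in fasted mice, where 6.39% of all rows were: Irgm1 (-0.84 ± 0.09, adjusted p = 1.38e-05), the Gbp6 probe set (-1.56 ± 0.21), Igtp and Irgm2 (-0.98 ± 0.16), Gbp7 (-0.82 ± 0.18), Gbp3 (-0.68 ± 0.15) and Iigp1 (-0.33 ± 0.09). Without wild-type fasted mouse 3 this count was 8 (6.09% of all rows), and without knockout fed mice 1 and 4 it was 6 (4.79%).

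**Figure D2:**
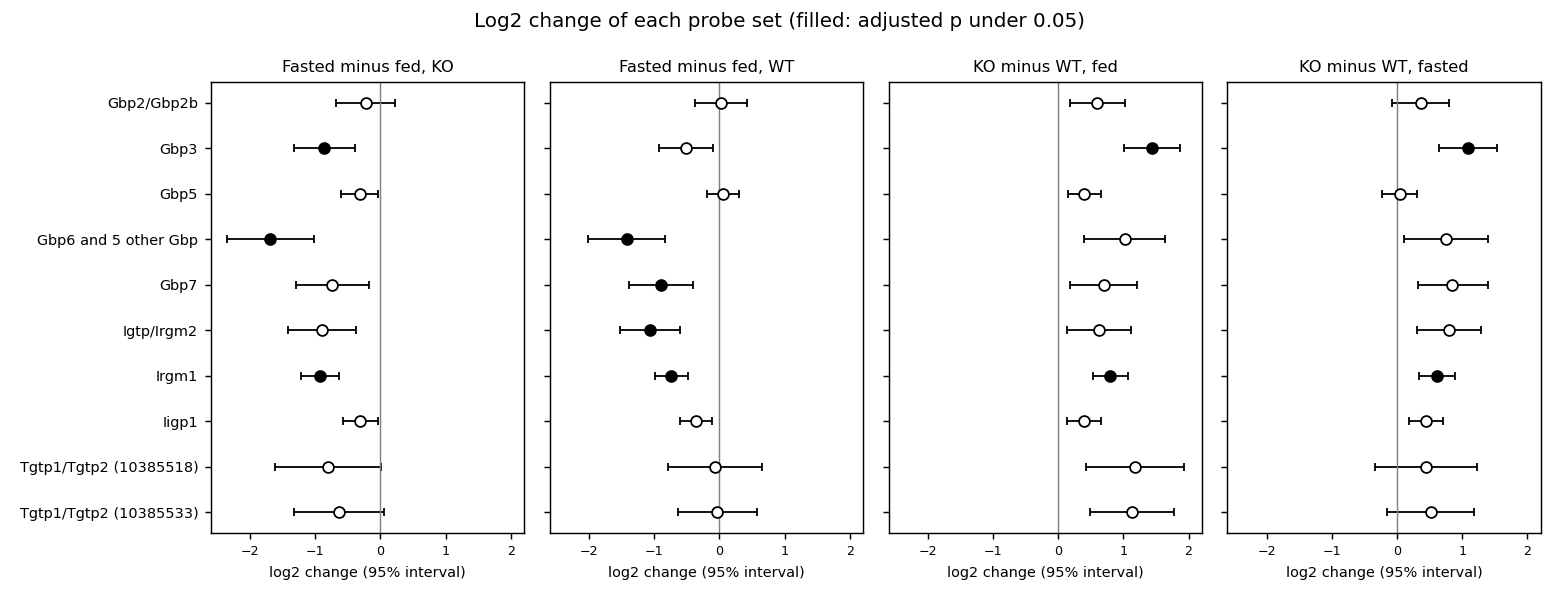
Log2 change of each GTPase probe set (rows) in the 4 comparisons (panels), as titled on each panel; points are limma estimates, bars 95% intervals, and filled points passed at an adjusted p under 0.05. All 10 estimates lie right of 0 for knockout minus wild-type in fed and in fasted mice, and left of 0 for the fast in knockouts.

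The GTPases varied together from liver to liver. Over the 45 pairs of probe sets, Pearson's r across the 16 arrays ran from 0.58 to 0.99 (median 0.79). After each group's mean was subtracted, r ran from 0.20 to 0.98 (median 0.65), lowest for Gbp3 with the Gbp2 and Gbp2b probe set and highest for the 2 probe sets of Tgtp1 and Tgtp2. These are descriptions of 16 arrays that share probe sequence between related genes, RMA normalization and, within groups, wild-type fasted mouse 3. Likeness to the mean of the 5 GTPases with their own probe set was ranked among genes with a probe set of their own. The members and the other GTPases described below were left out of this ranking. The highest were Parp14 (r = 0.96 over 16 arrays), Rtp4 (0.95), and Dsg2, Ddx58, Anxa5, Ifit1, Samhd1 and Ddx60 (0.94 each). After group means were subtracted, r was 0.85 for Parp14, 0.51 for Rtp4, 0.89 for Dsg2, 0.68 for Ddx58, 0.64 for Anxa5 and for Ifit1, 0.73 for Samhd1 and 0.67 for Ddx60.

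**Figure D3:**
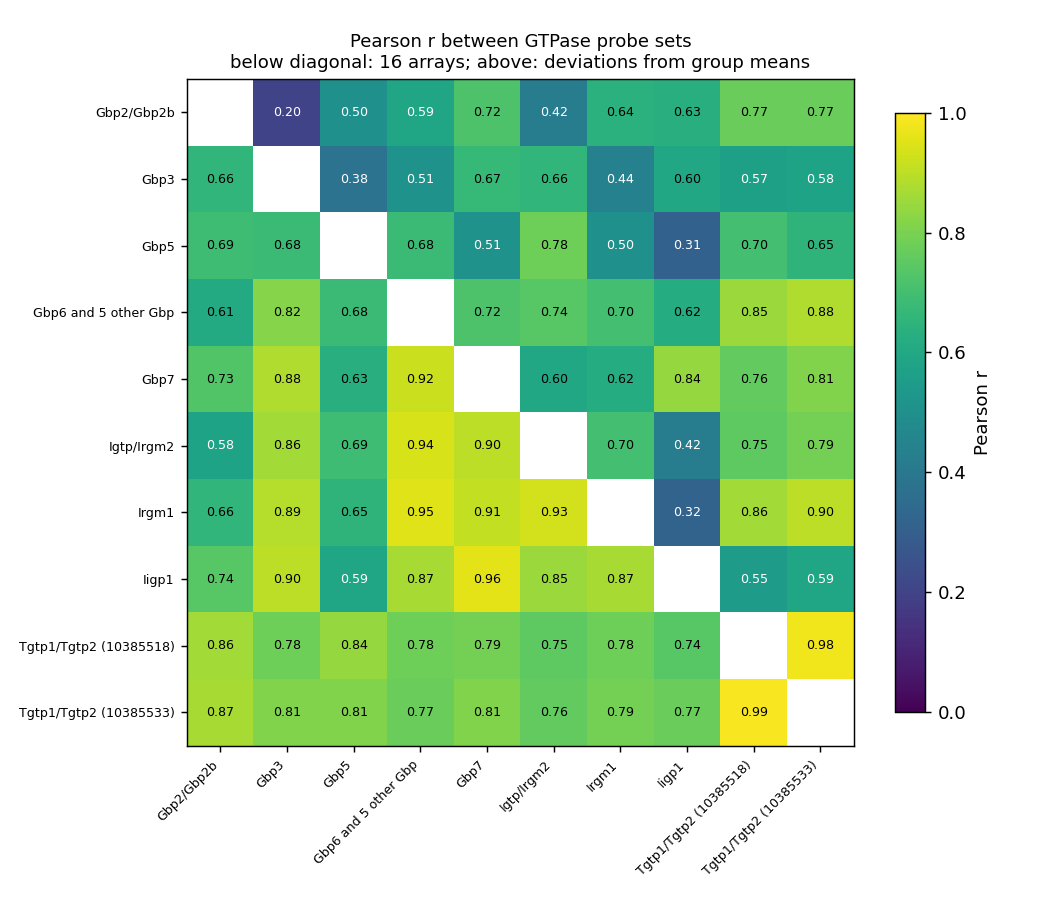
Pearson's r between each pair of GTPase probe sets, named on both axes and shaded by r. The lower left triangle gives r over the 16 arrays, from 0.58 to 0.99, and the upper right triangle r of the deviations from group means, from 0.20 to 0.98.

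Other GTPases were measured for 12 of 23 listed genes by a probe set of their own. Of those measured, Mx1 and Mx2 belong to neither the Gbp nor the Irg family. Gbp8 fell by 0.94 ± 0.17 with the fast in knockout mice (adjusted p = 0.00545), reading 3.17, 3.50 and 3.22 in fasted knockouts and 4.62, 4.14, 4.14 and 4.03 in fed knockouts. Gm4951, an Irg-like gene, fell by 0.92 ± 0.19 with the fast in wild-type mice (adjusted p = 0.00512). In knockouts its fasting difference was 0.38 ± 0.22 (adjusted p = 0.450), and in fed mice its knockout difference was -0.72 ± 0.20 (adjusted p = 0.109), opposite in sign to the 10 GTPase probe sets. Its difference between fasting responses was 1.29 ± 0.29 (unadjusted p = 0.000345 in limma, adjusted p = 0.15). No other gene of the 12 passed in these 4 comparisons, and between genotypes 0 passed in limma, with 8 in fed and 4 in fasted mice at an unadjusted p under 0.05. Of all rows, 1.81% were called lower with the fast in knockouts and 5.93% in wild-type mice. The mean over genotypes was lower in fasted mice for Gbp4, Gbp8, Gbp9, Gbp11, Gm12250 and Mx2, and over feeding states Mx2 (1.04 ± 0.21, adjusted p = 0.015) and Gm12250 (0.59 ± 0.14, adjusted p = 0.0467) were higher in knockouts. Of all rows, 6.39% were called lower in the mean over genotypes and 0.978% higher in the mean over feeding states. The values of Gbp2b (2.50 to 4.01), Mx1 (1.98 to 2.47), Gm4841 (1.71 to 2.49), Irgc1 (2.71 to 3.17) and Irgq (3.42 to 4.26) passed in none of these comparisons. Ifi47 was read by a probe set shared with Olfr56, tested in a fit of all 35519 probe sets: it fell by 0.65 ± 0.14 in knockouts (adjusted p = 0.0278) and by 0.64 ± 0.12 in wild-type mice (adjusted p = 0.00608), where 0.983% and 3.6% of all probe sets were called lower.

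Of 20 measured genes listed for interferon gamma signalling, 1 passed for the fast in knockouts and 2 in wild-type mice. Of all 19940 rows, 734 and 1839 passed there. Between genotypes in fed mice 1 of the 20 passed, and 135 of all rows. No test compared this list with all rows. The list also holds Stat2, Irf9 and Usp18, which act in type I interferon signalling. The call in fasting knockouts was Stat2 and that between fed genotypes was Usp18, so these counts are not particular to interferon gamma. Ifng, the ligand, was dim in every group (2.15 to 2.72 over all livers). Its receptor Ifngr1 differed by 0.22 ± 0.13 between knockout and wild-type fed mice (adjusted p = 0.499) and by 0.37 ± 0.13 in fasted mice (adjusted p = 0.306), and Ifngr2 by 0.21 ± 0.13 and -0.10 ± 0.13. Irf1, an interferon-induced transcription factor, read 5.87, 5.67 and 5.50 in knockout fasted, 7.71, 5.41, 5.74 and 6.00 in knockout fed, 5.25, 5.60, 6.07, 5.25 and 4.95 in wild-type fasted and 5.64, 5.40, 5.93 and 5.99 in wild-type fed mice. Knockout fed mouse 1 was thus far above all other livers for Irf1, which passed in no comparison, nor did Irf8 and Nlrc5. Of 20 measured pathway genes, Stat2 fell with the fast in knockouts (-0.61 ± 0.11, adjusted p = 0.0058). In wild-type mice the inhibitor Socs1 rose with the fast (0.24 ± 0.07, adjusted p = 0.0415) and Jak2 fell (-0.38 ± 0.10, adjusted p = 0.0213). Usp18, an inhibitor of type I interferon signalling, rose in knockout fed mice (1.34 ± 0.26, adjusted p = 0.0197), and none of the 20 passed between fasted genotypes in limma, with 3 at an unadjusted p under 0.05. Of the type I receptor genes and kinase, Ifnar1, Ifnar2 and Tyk2, Ifnar2 rose with the fast in wild-type mice (0.34 ± 0.10, adjusted p = 0.0381).

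Of 26 interferon gamma output genes, 4 fell with the fast in knockouts: Fcgr1 (-0.78 ± 0.14), an antibody receptor, Parp14 (-0.73 ± 0.14), and the immunoproteasome subunits Psmb9 (-0.63 ± 0.14) and Psmb10 (-0.59 ± 0.15). In wild-type mice Parp14 fell (-0.69 ± 0.12, adjusted p = 0.00153). Cybb (0.89 ± 0.17), Fcgr1 (0.89 ± 0.13) and Parp14 (0.58 ± 0.13) rose in knockout fed mice, and none passed between fasted genotypes (limma, 2 at an unadjusted p under 0.05). Without wild-type fasted mouse 3 these 4 counts were 7, 1, 3 and 1, and without knockout fed mice 1 and 4 they were 1, 1, 2 and 0. With all mice, 1.81% of all rows were called lower with the fast in knockouts and 5.93% in wild-type mice. Between genotypes, 0.451% were called higher in knockout fed and 0.346% in knockout fasted mice. The median of the list was -0.40, -0.06, 0.20 and 0.05 in those comparisons, against -0.77, -0.43, 0.75 and 0.56 for the GTPases. The chemokines Cxcl9 and Cxcl10 did not pass in any of them (adjusted p = 0.173 to 0.991); Cxcl10 read 8.76 in knockout fed mouse 1 and 3.63 to 5.70 in all other livers.

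Of 25 type I interferon-stimulated genes measured, of 28 listed, 20 fell with the fast in knockouts and 13 in wild-type mice, and 15 rose in knockout fed and 8 in knockout fasted mice. None was called the other way. Of all rows, 1.81% and 5.93% were called lower in these fasting comparisons, and 0.451% and 0.346% higher in these knockout comparisons. Without wild-type fasted mouse 3 the counts were 20, 13, 15 and 11, and without knockout fed mice 1 and 4 they were 11, 15, 7 and 10. Among the called genes, the decreases with the fast in knockouts were largest for Ly6e (-1.11 ± 0.19), Dhx58 (-1.04 ± 0.18), Rtp4 (-0.99 ± 0.17) and Oasl1 (-0.96 ± 0.22), and in wild-type mice for Bst2 (-1.23 ± 0.14), which tethers budding virus, Ly6e (-1.12 ± 0.17), Herc6 (-0.96 ± 0.15) and the RNA sensor Ifih1 (-0.90 ± 0.12). In knockout fed mice the increases of called genes were largest for Oas1a (1.48 ± 0.17), which senses double-stranded RNA, Ifit1 (1.27 ± 0.23), which binds foreign RNA, Rtp4 (1.25 ± 0.16) and the transcription factor Irf7 (1.21 ± 0.25). In knockout fasted mice the called increases were largest for Ifit1 (1.40 ± 0.24), Bst2 (1.05 ± 0.15), the antiviral gene Rsad2 (1.05 ± 0.20) and Rtp4 (1.00 ± 0.16), while Irf7 was not called (1.05, adjusted p = 0.0894). The list's medians, -0.72, -0.59, 0.68 and 0.54, lay near those of the GTPases; no test compared the lists, and the lists were chosen with earlier results of these data known.

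Genes that load the GTPases onto vacuoles or act after them gave 0 of 18 called in limma between genotypes, with 2 in fed and 3 in fasted mice at an unadjusted p under 0.05. Map1lc3b, which encodes the autophagy protein LC3B, rose with the fast by 0.46 ± 0.11 in knockouts (adjusted p = 0.0256) and by 0.64 ± 0.10 in wild-type mice (adjusted p = 0.00044), in the opposite direction to the GTPases. Atg3, an enzyme that joins LC3 to lipid, rose in knockouts (0.37 ± 0.10, adjusted p = 0.0492). In wild-type mice the autophagy receptor Sqstm1 rose (0.34 ± 0.06) and Il18 fell (-0.51 ± 0.16). With the fast, 1.88% of all rows were called higher in knockouts, and 3.29% higher and 5.93% lower in wild-type mice. Of 7 measured prenylation genes of 8 listed, Fnta (0.38 ± 0.08), a subunit of the enzymes that prenylate CaaX proteins such as Gbp2 and Gbp5, and Rabggtb (0.32 ± 0.09), a subunit of the enzyme that prenylates Rab proteins, rose with the fast in knockouts. Pggt1b, another subunit of a CaaX enzyme, fell with it in wild-type mice (-0.31 ± 0.08).

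Markers of other liver cells moved with some of these results. Of 18 Kupffer cell and macrophage markers, 5 rose in knockout fed mice: Mpeg1 (1.50 ± 0.23), Clec4f (0.88 ± 0.11), Cd5l (0.85 ± 0.15), C1qb (0.75 ± 0.14) and Folr2 (0.65 ± 0.14). Clec4f also fell with the fast in knockouts (-0.46 ± 0.12) and was higher in knockouts among fasted mice (0.54 ± 0.12). At an unadjusted p under 0.05 in limma, 13 were higher and 0 lower in knockout fed mice, and 8 higher and 1 lower in knockout fasted mice. Slc40a1, the brightest of the 18 (mean 9.18), read 8.70, 9.09, 9.23 and 8.83 in knockout fed and 9.23, 9.05, 9.17 and 9.16 in wild-type fed mice. The summed intensity of the 18 was 1820 to 1990 in knockout fasted, 2070 to 2380 in knockout fed, 1370 to 2030 in wild-type fasted and 1620 to 1750 in wild-type fed mice. The order of these ranges put knockout fed mice highest, as for the GTPases, and their part in the GTPase differences was not tested. Counts in the order knockout fed, knockout fasted, fasting in knockouts and fasting in wild-type mice were 5, 1, 1 and 0, the last with 6 at an unadjusted p under 0.05 in limma. They were 6, 2, 4 and 4 without wild-type fasted mouse 3, and 2, 0, 0 and 0 without knockout fed mice 1 and 4. In the same order, with all mice, 0.451% and 0.346% of all rows were called higher and 1.81% and 5.93% lower.

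T and NK cell markers, those of the usual sources of interferon gamma, were dim for 15 of 19 genes, with summed intensities of 110 to 117 in knockout fasted, 111 to 122 in knockout fed, 107 to 128 in wild-type fasted and 102 to 110 in wild-type fed mice. None of the 19 passed in limma in the 4 comparisons, with 3 or 4 at an unadjusted p under 0.05 in each. All 12 neutrophil markers and 6 of 7 B cell markers were dim as well, and none passed in limma, with at most 2 of each at an unadjusted p under 0.05. At a level near the floor of the array, a difference in these cells was not measurable by most of their markers. Of 15 sinusoidal endothelial markers, 2 fell with the fast in wild-type mice, Clec4g (-0.85 ± 0.20) and Tek (-0.42 ± 0.09), and none passed in the other 3 comparisons (limma, 0 to 4 at an unadjusted p under 0.05). Of 12 hepatocyte markers, Cyp2e1 rose with the fast in knockouts (0.26 ± 0.07) and in wild-type mice (0.21 ± 0.06), where Hnf4a rose (0.56 ± 0.13) and Fgb fell (-0.31 ± 0.07). With the fast, 1.88% of all rows were called higher in knockouts, and 3.29% higher and 5.93% lower in wild-type mice. Of 18 acute phase genes, Saa1 (-3.81 ± 0.95) and Steap4 (-1.92 ± 0.46) fell with the fast in knockouts and Fgg (-0.41 ± 0.08) in wild-type mice. Of all rows, 1.81% and 5.93% were called lower there. Knockout fed mice 1 and 4 had the highest scores of this list (1.29 and 2.09), and calls without them are not given here. None of 11 pancreas markers passed in limma, with 0 at an unadjusted p under 0.05.

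**Figure D4:**
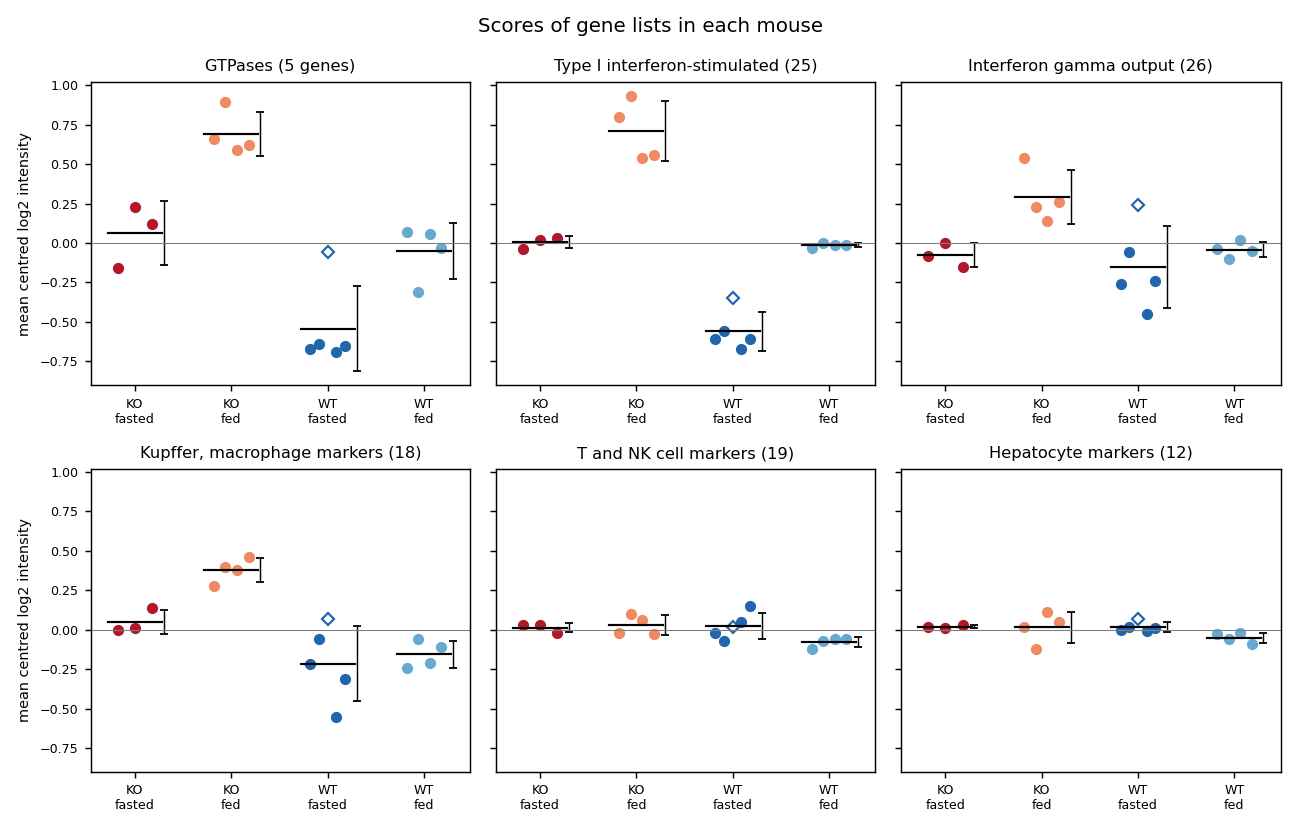
Scores of 6 gene lists in each mouse (vertical axis: mean over the list's genes of log2 intensity minus the gene's mean over all 16 arrays), by group; points are mice, horizontal bars group means, vertical bars 1 SD on either side, and the open diamond is wild-type fasted mouse 3. The score of the 5 GTPases with their own probe set was 0.59 to 0.89 in knockout fed mice and -0.69 to -0.06 in wild-type fasted mice, while T and NK cell markers stayed between -0.12 and 0.15.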

How the data were processed

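Liver RNA of each mouse was hybridised to its own Affymetrix array; replicates are labelled biological. The deposited values are linear intensities that the authors made with RMA, per the submitters' processing notes, which give no software version or genome build. No arrays were identical.

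Here log2 of the deposited intensities was fitted. Of 35519 probe sets, 21780 had 1 gene symbol, 1605 several and 12134 none. A gene was represented by its brightest single-symbol probe set (19935 genes), and 5 shared GTPase probe sets were added. All 16 arrays entered 1 limma 3.58.1 fit of 4 group means (R 4.3.3, 12 residual and 4.54 prior degrees of freedom), two-sided, with Benjamini-Hochberg adjustment over 19940 rows. It was tested on simulated data. Figures used Python 3.11.15 and matplotlib 3.10.9.

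The members, the 15 gene lists and the tests were chosen with earlier results of these data known. Every GTPase measured and Ppard are named. Of other lists, genes called in a contrast are named, up to 4 each way, plus pathway ligand, receptors and regulators. The 8 genes most like the members, outside the members and the other listed GTPases, are named as well. Cxcl9 and Cxcl10 were chosen after their values were seen. Alternatives changed normalization, centring, dim genes, probe set choice, variance model, array weights, replicate block, arrays fitted and scale.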

Additional observations from a re-analysis of the deposited data

Results flagged for a closer look

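Of 69 sets of 4 or 5 mice examined gene by gene for a mouse far from the rest of its group, 8 stood out, where chance gives about 1 in 20, and the GTPases are not independent of each other. Of these, 6 were wild-type fasted mouse 3, in each case the highest of its group. It read 6.08 on the Gbp6 probe set, with the next mouse at 5.10. It read 5.64 for Gbp7 (next 4.61), 5.77 for Irgm1 (next 5.21) and 5.46 for the Tgtp1 and Tgtp2 probe set 10385533 (next 3.92). For the other family genes it read 4.01 for Gbp2b (next 3.08) and 2.73 for the Ifi47 and Olfr56 probe set (next 2.35). Knockout fed mouse 2 was the highest of its group for Gbp3, at 6.39, with the next at 5.62; without it the knockout difference of Gbp3 in fed mice was still called. Wild-type fasted mouse 4 was the lowest of its group for the dim gene Gm4841, at 1.71, with the next at 2.00.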

How the results depend on the processing

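No call turned its direction under any alternative. The count of GTPase probe sets called for knockout minus wild-type in fasted mice, 2 as reported, was 1 with quantile normalization, 1 with the groups of the contrast alone, 1 without knockout fed mice 1 and 4, and 0 with all probe sets as rows, with linear intensities or with the replicate number as a block (limma; 6, 4 and 5 probe sets had an unadjusted p under 0.05). Leaving out single arrays gave 0 to 5. In fed mice the count of 2 was 4 with the groups alone and 2 to 4 with single arrays left out. The mean knockout effect, 6, was 3 with all probe sets as rows, 2 with the replicate block, 3 with linear intensities, 2 without knockout fed mice 1 and 4, and 2 to 9 with single arrays left out. The fasting count was 1 in wild-type mice with linear intensities, against 4, and 3 to 5 with single arrays left out; in knockouts it was 2 to 7, against 3. The mean fasting effect gave 5 to 8, against 6, and the difference between fasting responses 0 throughout. The cause was not tested. Irgm1 (fasting in both genotypes, knockout in fed mice), Gbp3 (knockout in fed mice) and the Gbp6 probe set (fasting in knockouts) kept their calls with each of 16 arrays left out and in the 11 other alternatives. For single genes, apart from arrays left out singly, 673 values kept their side of the threshold, 36 lost and 10 gained a call, and 14 uncalled values changed sign. Deviations of same-numbered mice of different groups correlated at r from -0.25 to 0.23 (21 pairs, 5 of them above 0.1). Mice of different numbers were not compared in this way, so whether the numbers pair mice was not tested. With 3 to 5 arrays a group and 5 of 10 genes on shared probe sets, small changes of single members cannot be resolved.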
